A study of Mus musculus with 12 samples.

Results

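Amino acids enter and leave liver cells through carrier proteins of the plasma membrane, and the RNA of 9 such carriers is described here across 12 mouse livers. The 9 genes were chosen by name as plasma membrane amino acid transporters of hepatocytes: Slc7a2, Slc38a2, Slc38a3, Slc38a4, Slc1a4, Slc43a1, Slc16a10, Slc3a1 and Slc3a2. Each matched 1 of the 48537 genes in the deposited table, and all 9 passed the filter on low values (a mean TPM, transcripts scaled to a fixed total per library, of at least 1 over the 12 livers).

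The livers were collected at zeitgeber time 10, 10 h after lights on, and fell into 3 groups of 4. Re-expression livers were titled as double knockout (DKO) of the REV-ERBs with REV-ERBalpha-WT and as REV-ERBalpha re-expressing by genotype. Livers labelled DKO were REV-ERBs double-knockout with YFP, and control livers were of wildtype genotype with YFP. The deposited column names of the livers labelled DKO hold the word Cre, and whether the other groups received Cre is not stated there. Age, sex, the way the genes were delivered and the promoter that drove them are not stated in the labels used here. REV-ERBalpha and REV-ERBbeta, the products of Nr1d1 and Nr1d2, are nuclear receptors of the circadian clock that repress transcription. The RNA of neither gene was called lower in livers labelled DKO than in control livers (limma adjusted p = 0.173 for Nr1d1 and 0.792 for Nr1d2). Nr1d1 RNA averaged 191 ± 22.4 TPM in re-expression livers, 82.5 ± 7.39 TPM in livers labelled DKO and 68.7 ± 5.53 TPM in control livers (SD, n = 4). Nr1d2 RNA averaged 97.7 ± 15.1 TPM in re-expression livers, 90.4 ± 7.91 TPM in livers labelled DKO and 96.6 ± 14.9 TPM in control livers. Reads summed over a whole gene do not check a partial deletion, so the middle group is named by its label throughout. Libraries held 5621667 to 6906221 recovered reads. Control replicates 1 and 2 lay apart from control replicates 3 and 4 on the second principal component, at 26.9 and 6.36 against -43.8 and -48.7. On the first component the same pairs stood at -63.2 and -37.1 against -20.6 and -11.3, and livers labelled DKO ran from 23.05 to 29.46. Where leaving out a pair of control livers changed a call of a transporter, the values without either pair are given. The hepatocyte markers summed to between 43858 and 46785 TPM in livers labelled DKO and between 42122 and 46372 TPM in control livers. All 8 of them were detected in every liver. In livers labelled DKO 2 were called higher and 0 lower, where 2.99% and 2.34% of all tested genes were called. Cps1 counts both among these markers and among the enzymes given below. For 5 of the 8 the 2 groups did not overlap, 3 higher and 2 lower, against 11.5% of all tested genes (6.13% higher and 5.4% lower). Alb, the most abundant of them, averaged 20148 TPM in livers labelled DKO and 23338 TPM in control livers.

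The liver takes up amino acids after a meal and from muscle during fasting, uses them for glucose, urea and plasma proteins, and returns glutamine to the blood. System A carriers bring in alanine and glutamine with sodium, system N carriers move glutamine, histidine and asparagine in either direction, and cationic carriers handle arginine, lysine and ornithine. Other carriers exchange or release neutral, branched-chain and aromatic amino acids, and several of them work only when joined to a heavy chain protein.

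In livers labelled DKO the called transporters lay on both sides of the control livers. Slc7a2, the cationic carrier gene, and Slc38a2, a system A gene, were each lower than in control livers by about the same factor, with means at 0.581 and 0.559 of the control mean. Slc1a4, a gene of neutral amino acid exchange, was higher, at 2.2 times the control mean. The most abundant carriers, Slc38a3 and Slc38a4, and the remaining 4 genes did not pass the test. In limma's test with Benjamini-Hochberg adjustment over 17957 genes and a threshold of 0.05, 1 of the 9 was called higher and 2 lower. Of all tested genes 5.33% were called, 2.99% higher and 2.34% lower. Before adjustment, 7 of the 9 had a limma p under 0.05, beside 3296 of all 17957 tested genes. For 5 of the 9, 3 higher and 2 lower, no liver labelled DKO fell within the range of the control livers, against 11.5% of all tested genes (6.13% higher and 5.4% lower). The median log2 change of the 9 was -0.15, beside 0.00107 for all tested genes. The 9 were chosen with earlier results of these data known, so such counts, here and below, are not independent evidence about transporters. Because these are whole livers, fewer cells of a type and less RNA per cell cannot be told apart.

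**Figure D1:**
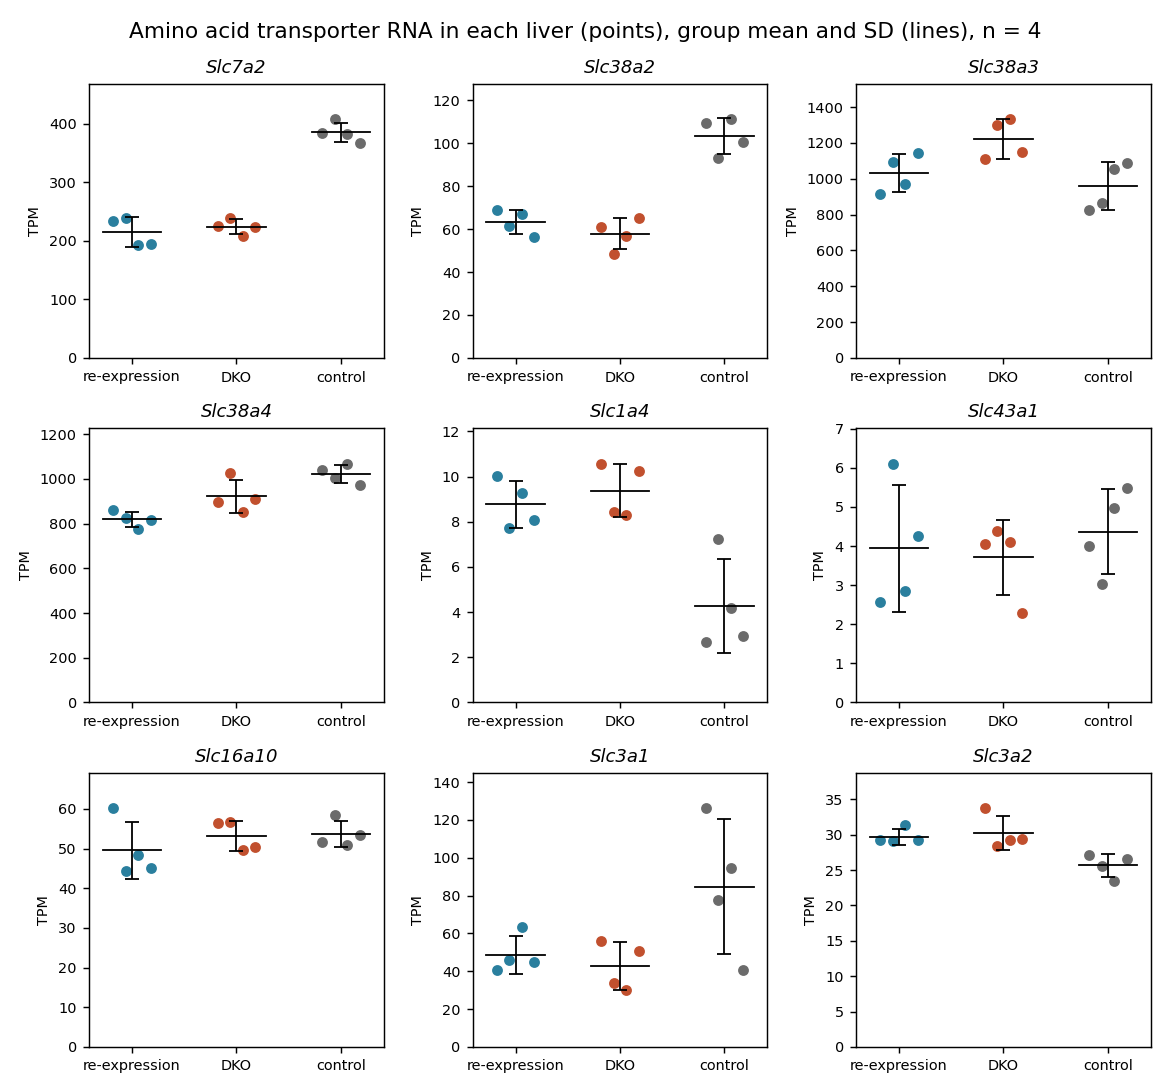
TPM of each transporter in every liver (points), with the group mean and SD (lines, n = 4), in re-expression livers, livers labelled DKO and control livers from left to right, each vertical axis starting at 0. Slc7a2 and Slc38a2 stand lower, and Slc1a4 higher, in every re-expression liver and every liver labelled DKO than in every control liver.

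Levels per transcript length differed widely among the 9. In control livers Slc38a4 averaged 1021 ± 41.2 TPM and Slc38a3 959 ± 132 TPM, and their ranges over livers overlapped. Slc7a2 came next at 385 TPM, clear of its neighbours. Slc38a2 at 104 TPM, Slc3a1 at 84.7 TPM and Slc16a10 at 53.6 TPM followed, with Slc3a1 overlapping both others. Slc3a2 stood at 25.7 TPM, and Slc43a1 and Slc1a4, at 4.37 and 4.26 TPM, overlapped at the low end. By mean TPM over all 12 livers Slc38a3 ranked 123 and Slc38a4 ranked 144 among the 17957 tested genes, and Slc43a1 ranked 12350. The order changed at both ends in the other groups. In livers labelled DKO Slc38a3, at 1221 ± 110 TPM, stood above Slc38a4, at 922 ± 73.5 TPM, with no overlap, and Slc1a4, at 9.38 TPM, stood above Slc43a1, at 3.71 TPM, also with no overlap. The same was true of re-expression livers, where the means were 1031 TPM for Slc38a3, 820 TPM for Slc38a4, 8.77 TPM for Slc1a4 and 3.94 TPM for Slc43a1. There Slc38a2, Slc16a10 and Slc3a1 overlapped one another at 63.4, 49.5 and 48.6 TPM, as they did in livers labelled DKO at 57.9, 53.3 and 42.6 TPM, where Slc3a1 also overlapped Slc3a2.

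Slc7a2 encodes CAT2, a carrier of arginine, lysine and ornithine, with a low-affinity form made in liver by alternative splicing. The gene lies on chromosome 8, 40862396 to 40922308, plus strand (build mm10). Its RNA stood at 234, 239, 193 and 194 TPM in re-expression livers, at 224, 239, 208 and 224 TPM in livers labelled DKO, and at 384, 407, 382 and 366 TPM in control livers. All 8 livers of the first 2 groups were below all 4 control livers, and the first 2 groups overlapped. Between livers labelled DKO and control livers it fell by 0.78 ± 0.08 on the log2(TPM + 1) scale (SE, limma adjusted p = 0.000259). Each library held at least 4277 reads of this gene. The call held in all 25 alternatives, with adjusted p between 8.97e-06 and 0.00648. Gene totals do not separate the spliced forms. An annotated noncoding gene, Gm26584, overlaps its first 3252 bases on the opposite strand, and no source used here says whether reads were counted by strand.

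Slc38a2 encodes SNAT2, a system A carrier of small neutral amino acids that is known to be induced in cells deprived of amino acids. It lies on chromosome 15, 96687392 to 96699730, minus strand. Its level was 68.8, 61.5, 66.8 and 56.3 TPM in re-expression livers, 61.1, 48.2, 57.0 and 65.3 TPM in livers labelled DKO, and 109, 93.1, 111 and 101 TPM in control livers. No re-expression liver and no liver labelled DKO reached the lowest control liver. In livers labelled DKO it fell by 0.83 ± 0.10 on the log2(TPM + 1) scale relative to control livers (SE, limma adjusted p = 0.00078), and the call held in all 25 alternatives (adjusted p from 4.11e-05 to 0.0105).

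Slc38a2 lies between 2 genes of its own family. Slc38a1, 44479 bases away, encodes a related system A carrier and averaged 0.604 TPM in re-expression livers, 0.437 TPM in livers labelled DKO and 0.716 TPM in control livers, under the filter for testing. Slc38a4, 295090 bases away on the other side (96994820 to 97055956, minus strand), encodes SNAT4, a system A carrier of liver that also takes cationic amino acids. It stood at 859, 826, 775 and 818 TPM in re-expression livers, 898, 1025, 852 and 913 TPM in livers labelled DKO, and 1040.45, 1003, 1068 and 974 TPM in control livers. Livers labelled DKO overlapped the control livers, and the log2 difference of -0.15 ± 0.07 was not called (limma adjusted p = 0.256). Neighbouring genes of 1 family thus had different values: Slc38a2 passed the test and Slc38a4 did not, and the difference between the 2 changes was not tested.

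Slc38a3 encodes SNAT3, the system N carrier that exchanges glutamine, histidine and asparagine, and lies on chromosome 9, 107650634 to 107669530, minus strand. It was the most abundant of the 9 over all livers. The values were 918, 1096, 969 and 1143 TPM in re-expression livers, 1107, 1298, 1331 and 1147 TPM in livers labelled DKO, and 826, 867, 1052 and 1090.3 TPM in control livers. Every liver labelled DKO was above every control liver, while the re-expression livers overlapped both. The log2 difference of 0.35 ± 0.11 between livers labelled DKO and control livers did not pass the test (limma adjusted p = 0.0995, 0.0283 to 0.429 over the alternatives). The 2 pairs of control livers gave different values: the difference was 0.52 without control replicates 3 and 4 (adjusted p = 0.0283) and 0.18 without control replicates 1 and 2 (adjusted p = 0.429).

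Slc1a4 encodes ASCT1, an exchanger of alanine, serine, cysteine and threonine, and lies on chromosome 11, 20302180 to 20332713, minus strand. It stood at 10.01, 7.71, 9.26 and 8.10 TPM in re-expression livers, 10.6, 8.44, 8.30 and 10.2 TPM in livers labelled DKO, and 2.68, 7.23, 4.17 and 2.95 TPM in control livers. Control replicate 2 was well above the other control livers and still below all others. In livers labelled DKO it rose by 1.05 ± 0.22 on the log2(TPM + 1) scale relative to control livers (SE, limma adjusted p = 0.0189). The gene had only 71 to 102 reads per library in livers labelled DKO and 24 to 68 reads in control livers. Leaving out DKO replicate 1 or 4 ended the call (adjusted p = 0.0582 and 0.0579), as did fitting only the 8 libraries compared (0.0663) and leaving out control replicates 3 and 4 (0.91, adjusted p = 0.0827). Without control replicates 1 and 2 the value was 1.19 (adjusted p = 0.00543).

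Markers of other liver cells were compared between the same groups. Of all tested genes 2.99% were called higher and 2.34% lower in livers labelled DKO. Of 11 stellate cell and fibroblast markers, all detected in every liver, 4 were called higher in livers labelled DKO than in control livers and 0 lower, and their summed level ran from 370 to 419 TPM in livers labelled DKO and from 222 to 346 TPM in control livers. The 9 sinusoidal endothelium markers had 0 called and sums of 293 to 357 TPM in livers labelled DKO and 231 to 284 TPM in control livers. All 9 had a log2 change above 0, and 6 had an unadjusted limma p under 0.05. For 4 every liver labelled DKO was above every control liver, beside 6.13% of all tested genes. Of 5 tested cholangiocyte markers 1 was called higher (sums of 77.0 to 87.3 TPM and 74.8 to 105 TPM), and of 10 Kupffer cell markers 0 were called (sums of 519 to 582 TPM and 495 to 1116 TPM, livers labelled DKO first). All 10 Kupffer cell markers had a log2 change below 0, and 0 had an unadjusted limma p under 0.05. The 5 red blood cell markers had 0 called and sums of 400 to 686 TPM in livers labelled DKO and 276 to 382 TPM in control livers. All 5 had a log2 change above 0 and an unadjusted limma p under 0.05, beside 3296 of all 17957 tested genes. The part of these cell types in the values of Slc1a4 and of the other transporters was not tested. Zonal hepatocyte markers were also compared, because several carriers are zoned in the liver lobule. Of 9 pericentral markers 1 was called higher and 0 lower in livers labelled DKO. The called marker was Oat, which, like Glul of the same list, also counts among the enzymes given below. Of 9 periportal markers 0 were called, and Gls2 and Sds among them also count among those enzymes. Summed levels overlapped between the groups for both, with 10026 to 11890.0 TPM in livers labelled DKO and 9684 to 11158 TPM in control livers for the pericentral list.

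Promoter windows from RefSeq (build GRCm38.p6, 250 bases before to 50 bases after the annotated start) were matched by symbol for 7 of the 9 genes, in 9 windows, but not for Slc7a2 and Slc38a3. They were searched on both strands for AGGTCA, the core site of many nuclear receptors, for the ROR element, a longer form bound by ROR and REV-ERB that contains the core site, for TGATGCAA, a composite element bound by ATF4, for the E-box CACGTG and for the D-box TTATGTAA. The windows of Slc38a2 and Slc1a4 are shown because these genes were called in opposite directions, and the first window of Slc38a4 because it lies beside Slc38a2 and was not called in livers labelled DKO. Capitals mark a match to a searched motif.
Slc38a2, chr15:96699679-96699978, minus strand: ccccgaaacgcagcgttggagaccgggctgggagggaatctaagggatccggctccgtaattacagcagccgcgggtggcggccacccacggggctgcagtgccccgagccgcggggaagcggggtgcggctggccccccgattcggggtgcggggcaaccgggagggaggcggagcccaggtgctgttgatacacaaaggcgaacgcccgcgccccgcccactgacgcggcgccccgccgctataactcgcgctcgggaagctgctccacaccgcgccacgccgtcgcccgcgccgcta
Slc1a4, chr11:20332664-20332963, minus strand: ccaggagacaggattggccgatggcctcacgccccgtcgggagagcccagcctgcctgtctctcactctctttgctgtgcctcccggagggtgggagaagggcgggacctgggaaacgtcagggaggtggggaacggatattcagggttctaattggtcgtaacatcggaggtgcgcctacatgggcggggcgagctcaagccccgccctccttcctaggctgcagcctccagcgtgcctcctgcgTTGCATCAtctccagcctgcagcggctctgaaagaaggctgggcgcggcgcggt
Slc38a4, chr15:97055907-97056206, minus strand: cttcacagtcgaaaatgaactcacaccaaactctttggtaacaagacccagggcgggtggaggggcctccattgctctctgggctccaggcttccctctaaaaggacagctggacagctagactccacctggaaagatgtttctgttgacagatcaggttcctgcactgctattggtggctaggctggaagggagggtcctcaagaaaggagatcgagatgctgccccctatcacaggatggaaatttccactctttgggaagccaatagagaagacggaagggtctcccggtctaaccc
The window of Slc1a4 holds TTGCATCA, the ATF4 composite element read on the other strand, beginning 4 bases before the annotated start. The same element was found in 0.895% of all 32851 windows in the table. Neither AGGTCA nor the ROR element was found in any of the 9 windows, against 16.3% and 0.219% of all windows, and TTATGTAA was found in none of the 9, against 0.938%. CACGTG was found in the window of Slc43a1, and in 7.15% of all windows. The windows of Slc38a2 and Slc1a4 were rich in G and C, at 73.0% and 65.0%, the first window of Slc38a4 had 53.0%, and the median of all windows was 52.7%. These matches describe letters in short windows and say nothing of binding. Sites outside the windows, including those further inside a gene, and sites that differ from the searched letters were not looked for. A window without capitals thus does not show that its gene lacks an element.

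The genes of branched-chain and aromatic carriers did not pass the test. Slc43a1, the gene of LAT3, a facilitated carrier of branched-chain amino acids (chromosome 2, 84838850 to 84863594, plus strand), had 2.56, 6.10, 2.84 and 4.25 TPM in re-expression livers, 4.06, 4.39, 4.11 and 2.28 TPM in livers labelled DKO, and 4.002, 3.02, 4.97 and 5.47 TPM in control livers. All 3 groups overlapped, and with 28 to 82 reads per library the 95% interval of the log2 change in livers labelled DKO ran from -0.74 to 0.36. Slc16a10, the gene of TAT1, a carrier of aromatic amino acids (chromosome 10, 40033532 to 40142258, minus strand), had 60.1, 44.3, 48.5 and 45.2 TPM in re-expression livers, 56.3, 56.7, 49.7 and 50.4 TPM in livers labelled DKO, and 51.7, 58.4, 51.0 and 53.4 TPM in control livers. A snoRNA gene, Gm25613, lies within it on the opposite strand over 129 bases. The groups overlapped, and the log2 change of -0.01 in livers labelled DKO had an interval of -0.23 to 0.21.

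Both heavy chain genes were examined with their partners. Slc3a1 encodes rBAT, the heavy chain of the cystine and dibasic amino acid carrier whose light chain is the product of Slc7a9 (chromosome 17, 85028376 to 85064236, plus strand). It stood at 40.5, 45.8, 63.6 and 44.7 TPM in re-expression livers, 56.1, 33.7, 29.9 and 50.6 TPM in livers labelled DKO, and 126, 77.9, 94.4 and 40.4 TPM in control livers. All control livers but 1 were above all livers labelled DKO, while control replicate 4 was below 2 of them. The log2 difference between livers labelled DKO and control livers was -0.91 ± 0.31 and did not pass the test (limma adjusted p = 0.135), but it did without control replicate 4 (-1.23, adjusted p = 0.0187) and without control replicates 3 and 4 (-1.25, adjusted p = 0.0399). Without control replicates 1 and 2 it was -0.58 (adjusted p = 0.44). Its last 767 bases overlap Prepl on the opposite strand, which averaged 20.7 TPM. Slc7a9 was listed at 0 in 11 of 12 libraries.

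Slc3a2 encodes the heavy chain CD98 of several neutral and cationic carriers (chromosome 19, 8706882 to 8723369, minus strand). It had 29.2, 29.1, 31.4 and 29.2 TPM in re-expression livers, 33.7, 28.4, 29.3 and 29.4 TPM in livers labelled DKO, and 27.1, 25.6, 23.5 and 26.5 TPM in control livers. All livers of the first 2 groups were above all control livers, yet the log2 change of 0.22 ± 0.08 in livers labelled DKO was not called (limma adjusted p = 0.132, 0.0908 to 0.299 over the alternatives). Its light chain genes were lower in level: Slc7a5 had 2.67 ± 1.30 TPM in livers labelled DKO and 3.36 ± 0.666 TPM in control livers, and Slc7a8 had 2.73 ± 0.625 TPM and 3.68 ± 1.37 TPM in the same order (SD, n = 4). Neither passed the test (adjusted p = 0.573 and 0.576).

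**Figure D2:**
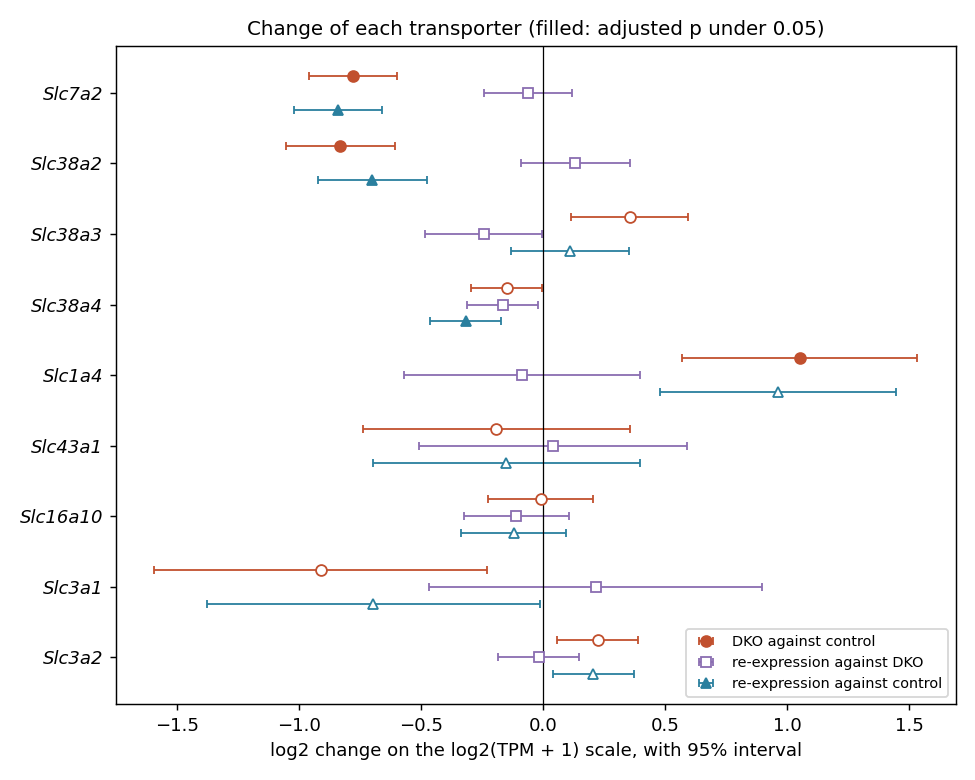
Log2 change of each transporter on the log2(TPM + 1) scale (horizontal axis) in 3 comparisons, with 95% intervals and filled symbols where limma's adjusted p is under 0.05. The intervals of re-expression livers against livers labelled DKO lie near 0 for Slc7a2 and Slc38a2, at -0.24 to 0.12 and -0.09 to 0.36.

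Re-expression livers were then set against livers labelled DKO, which asks what returning REV-ERBalpha changes. None of the 9 transporters passed limma's test, with adjusted p between 0.709 and 1, where 0.0724% of all tested genes were called (0.0278% higher and 0.0446% lower). All 9 had overlapping groups, where 4.25% of all tested genes did not overlap (2.09% higher and 2.16% lower). The median log2 change of the 9 was -0.06, beside 0.0129 for all tested genes. Before adjustment, 2 of the 9 had a p under 0.05, namely Slc38a3 with a log2 difference of -0.24 and Slc38a4 with -0.17, beside 1111 of all tested genes. For Slc7a2 the difference was -0.06 with a 95% interval of -0.24 to 0.12, and for Slc38a2 it was 0.13 with an interval of -0.09 to 0.36. For Slc1a4 it was -0.09, with an interval of -0.57 to 0.40. Nr1d1, the re-expressed gene, was called higher in the same comparison (adjusted p = 0.000452).

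Re-expression livers were also compared with control livers. Slc7a2 and Slc38a2 were lower, at 0.559 and 0.612 of the control mean, and Slc38a4 was lower at 0.803. Of the 9 genes 3 were called lower and 0 higher, where 1.82% of all tested genes were called, 1.16% higher and 0.663% lower. The groups of 5 of the 9 stood apart, 2 higher and 3 lower, against 7.28% of all tested genes, 4.29% higher and 3% lower. The median log2 change of the 9 was -0.15, beside 0.0105 for all tested genes. Before adjustment, 6 of the 9 had a limma p under 0.05, beside 2251 of all tested genes. Slc7a2 fell by 0.84 ± 0.08 (SE, limma adjusted p = 0.000313) and Slc38a2 fell by 0.70 ± 0.10 (adjusted p = 0.00504), and both calls held in all 25 alternatives. Slc38a4 fell by 0.32 ± 0.07 (adjusted p = 0.0348), with every re-expression liver below every control liver. That call was lost in 14 of 25 alternatives (highest adjusted p 0.12), among them leaving out any 1 re-expression replicate, control replicate 1, 2 or 3, or DKO replicate 1 or 4. It was also lost without control replicates 1 and 2 (adjusted p = 0.12) and without control replicates 3 and 4 (0.0857). Slc1a4 was 0.96 ± 0.22 higher without passing the test (adjusted p = 0.0525), with 0.00344 to 0.164 over the alternatives. It passed in 5 of 25 of these, among them without control replicate 2 (1.20, adjusted p = 0.00344) and without control replicates 1 and 2 (1.11, adjusted p = 0.0148). Without control replicates 3 and 4 it was 0.82 (adjusted p = 0.152). This comparison and that of livers labelled DKO use the same control livers, so their likeness is not independent evidence. Stellate cell and fibroblast markers summed to 312 to 386 TPM in re-expression livers and 222 to 346 TPM in control livers, with 1 of 11 called higher, and red blood cell markers to 372 to 835 TPM and 276 to 382 TPM in the same order, with 0 of 5 called. All 11 of the former and all 5 of the latter had a log2 change above 0. Their part in these values was not tested.

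**Figure D3:**
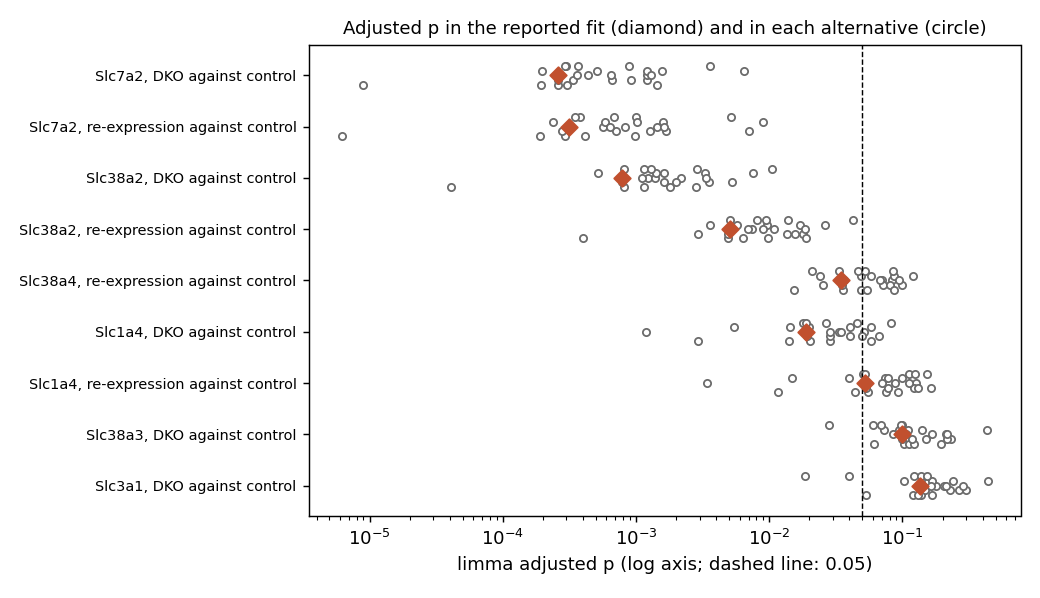
Limma adjusted p (log axis) of selected transporters in the reported fit (diamonds) and in each of 25 alternatives (circles), with the threshold of 0.05 as a dashed line. All circles of Slc7a2 and Slc38a2 lie under 0.05, while those of Slc38a4 and Slc1a4 lie on both sides.

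Related gene lists were read from the same fit, for livers labelled DKO against control livers. Of 27 other plasma membrane amino acid transporters 14 were tested, with a median log2 change of -0.25. Of these 0 were called higher and 1 lower, beside 2.99% and 2.34% of all tested genes. The called gene was Slc6a9, which encodes the glycine carrier GLYT1, at 13.1 ± 1.63 TPM in livers labelled DKO and 21.4 ± 3.49 TPM in control livers (limma adjusted p = 0.0235). Slc1a5 and Slc43a2, relatives of Slc1a4 and Slc43a1, were not called, at 1.44 and 7.15 TPM in livers labelled DKO and 1.29 and 6.48 TPM in control livers. Slc7a1, the widely expressed relative of Slc7a2, stood at 0.449 TPM in livers labelled DKO and 0.452 TPM in control livers and was not tested. None of 7 lysosomal amino acid transporters and none of 9 mitochondrial amino acid carriers were called by limma, with medians of -0.23 and 0.10. At an unadjusted p under 0.05 stood 1 gene of each list, beside 3296 of all 17957 tested genes. The lysosomal list summed to 105 to 112 TPM in livers labelled DKO and 123 to 129 TPM in control livers, without overlap, and the mitochondrial list to 559 to 612 TPM and 505 to 613 TPM in the same order.

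Slc38a2 and Slc3a2 are known to belong to the response to amino acid shortage, which the factor ATF4 drives. Of 12 tested genes of that response 1 was called higher and 1 lower in livers labelled DKO, beside 2.99% and 2.34% of all tested genes, and so few calls give no direction for the list. Asns, which encodes asparagine synthetase, had 4.85 ± 2.35 TPM in livers labelled DKO and 30.1 ± 10.9 TPM in control livers (log2 change -2.44, limma adjusted p = 0.00156). Atf5, the gene of a factor related to ATF4, rose to 119 ± 25.4 TPM in livers labelled DKO, against 75.2 ± 6.7 TPM in control livers (adjusted p = 0.0296). Atf4 itself had 87.8 ± 7.66 TPM in livers labelled DKO and 103 ± 8.42 TPM in control livers and was not called (adjusted p = 0.14).

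Enzymes that use the transported amino acids had more RNA in livers labelled DKO where they were called. Of 19 tested, 6 were called higher and 0 lower, beside 2.99% and 2.34% of all tested genes, with a median log2 change of 0.30. Oat, the ornithine aminotransferase gene, averaged 1074 ± 106 TPM in livers labelled DKO and 659 ± 108 TPM in control livers (limma adjusted p = 0.0046). Got1, the cytosolic aspartate aminotransferase gene, averaged 373 ± 65.3 TPM and 220.01 ± 26.4 TPM in the same order (adjusted p = 0.00494). Cps1, which encodes the entry enzyme of the urea cycle, rose by 0.32 on the log2 scale, and Tdo2, which encodes an enzyme of tryptophan breakdown, by 0.45. In re-expression livers 1 of the 19 enzymes was called higher than in control livers and 0 lower, beside 1.16% and 0.663% of all tested genes. For 5 of the 19 every re-expression liver was above every control liver, beside 4.29% of all tested genes. Against livers labelled DKO 0 of the 19 were called, beside 0.0724% of all tested genes. There 14 of the 19 had a log2 change below 0 and 5 above. For 2 every re-expression liver was below every liver labelled DKO, beside 2.16% of all tested genes, and for 0 above, beside 2.09%. Before adjustment 3 had a limma p under 0.05, beside 1111 of all 17957 tested genes.

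**Figure D4:**
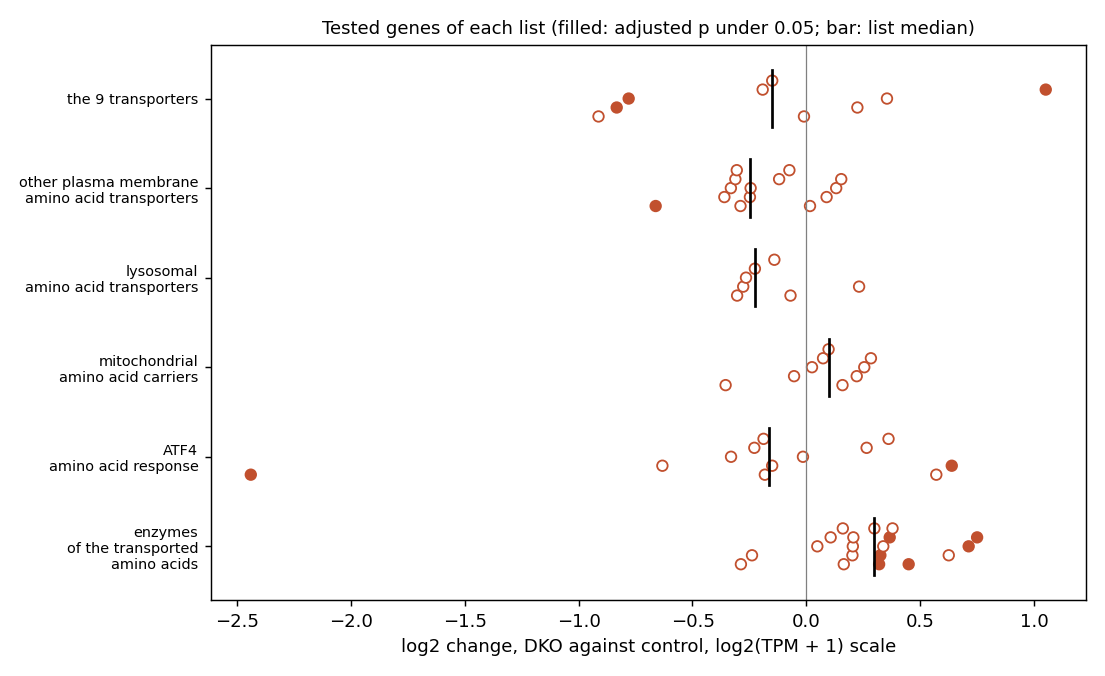
Log2 change in livers labelled DKO against control livers (horizontal axis, log2(TPM + 1) scale) of each tested gene, by list, with filled points where limma's adjusted p is under 0.05 and a bar at the list's median. Called transporters lie on both sides of 0, and all 6 called enzymes lie above 0.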

How the data were processed

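Total RNA of each liver went into a stranded total RNA library, per the labels' protocols. The submitters' processing notes name STAR 2.7.1a, bcl2fastq 2.17, DESeq2 1.36.0, featureCounts 2.0.1, SAMtools 1.9 and the mm10 build. TPM values, scaled to the same total per library, were deposited by the authors, 1 column per liver. Columns were tied to samples by name, with YFP_Cre taken as the DKO title with YFP and YFP_WT as the title with REV-ERBalpha-WT. The authors' 3 numbered comparisons, which the headers do not name, were not used.

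Group means of the 3 groups were fitted to log2(TPM + 1) of all 12 livers with limma 3.58.1 (R 4.3.3), with a trend in the prior variance, 9 residual degrees of freedom, two-sided tests and Benjamini-Hochberg adjustment over 17957 genes that passed the filter (mean TPM of 1 or more). A fold change on this scale understates that of low genes. Each TPM multiplied by the table's gene length less 199 came out as a whole number of reads (tolerance 0.01 reads) for 100.0% of values above 0, once scaled by library, which gave the depth. Chi-square per degree of freedom between replicates ran from 4.08 to 13.5, so no 2 livers were counted as 1. The labels' protocols call each liver a biological replicate. The procedure was tested on simulated data with a spread among livers that was set beforehand. It called 27.3% of genes changed 2-fold, 78.95% of genes changed 4-fold and 9 of 17782 unchanged genes. The changed genes were drawn at random from all genes that passed the filter. These rates thus mix scarce and abundant genes and are not those of an abundant transporter such as Slc38a3. A gene that was not called may therefore still have changed.

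The members and the gene lists were chosen with earlier results of these data known, and no test was made over a list. Named genes were the 9 members, up to 4 genes per other list with the smallest p between livers labelled DKO and control livers, and relatives or partners of members. Positions are from GENCODE release 21 for mouse. Alternatives were other pseudocounts, filters, scalings, weights and priors, the 8 livers compared, the replicate number as a block, voom on recovered reads and each liver left out. Leaving out pairs of control livers was chosen after seeing the data. Figures used matplotlib 3.10.9.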

Additional observations from a re-analysis of the deposited data

Results flagged for a closer look

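In 27 combinations of a transporter and a group of 4 livers, 2 held a liver far from the other 3. Chance flags about 1 in 20 groups. Slc3a2 stood at 31.4 TPM in re-expression replicate 3, above 29.1 to 29.2 TPM in the other re-expression livers. Without that liver the log2 difference between re-expression and control livers was 0.18 in place of 0.21, and it was not called by limma in either case (adjusted p = 0.484 and 0.263). Slc43a1 stood at 2.28 TPM in DKO replicate 4, below 4.06 to 4.39 TPM in the other livers labelled DKO, and rested on 28 reads there. The calls of Slc7a2, Slc38a2 and Slc1a4 in livers labelled DKO involve no such liver.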

How the results depend on the processing

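Of 672 log2 changes of the transporters under 25 alternatives, 634 kept their direction and side of the threshold, 19 lost a call, 8 gained one and 11 changed sign, none of the last called. Several alternatives cannot alter a log2 change: other filters, the other prior, the block, the 8 libraries, and leaving out livers of the group not compared. Their unchanged direction was fixed in advance, and only the side of the threshold could move there. Sign changes were small. Slc16a10 in livers labelled DKO against control livers gave -0.0408 to 0.0306 without single livers and 0.0267 without control replicates 1 and 2, and Slc38a3 in re-expression against control livers gave -0.0604 without that pair. Without control replicates 3 and 4, Slc43a1 gave 0.0843 in re-expression livers and 0.0440 in livers labelled DKO, each against control livers. Without single livers, re-expression minus DKO values ran from -0.0463 to 0.0344 for Slc3a2 and from -0.153 to 0.179 for Slc43a1.

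The transporters called higher in livers labelled DKO numbered 0 with 8 libraries and 0 to 1 without single livers. In re-expression against control livers they numbered 1 with a mean TPM of at least 5, size factors, voom or control replicates 1 and 2 left out, and 0 to 1 without single livers. The gene was Slc1a4 in each of these, and the cause was not tested. The replicate number as a block gave 0 transporters called higher in livers labelled DKO (Slc1a4, adjusted p = 0.0517) and lost Slc38a4 in re-expression livers (0.0837). Deviations of same-numbered livers from their group means correlated between -0.0688 and 0.137, with 1 of 12 pairs over 0.1. Of the 12 livers 6 correlated best with their own number. Same-numbered re-expression and control livers correlated at 0.137, 0.0384, 0.0699 and 0.0879, while same-numbered pairs with a liver labelled DKO were all negative. Whether the replicate number links livers was not tested.

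Counts over all genes, given as higher and lower, moved more. Livers labelled DKO against control livers gave 537 and 421, 328 and 231 with 8 libraries, 332 to 524 and 241 to 414 without single livers, and 182 or 644 lower without control replicates 1 and 2 or 3 and 4. Re-expression against control livers gave 208 and 119, 115 and 47 with 8 libraries, 125 to 203 and 50 to 129 without single livers, and for lower genes 64 with the block, 234 with voom and 58 without control replicates 1 and 2. Re-expression livers against livers labelled DKO gave 5 and 8, 3 and 5 with the block, 13 and 23 with weights, 12 and 22 with voom, 9 higher with 8 libraries, 11 or 8 higher without control replicates 1 and 2 or 3 and 4, and 1 to 7 and 4 to 8 without single livers. Depth limits Slc1a4 and Slc43a1, with 24 to 102 reads per library.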

Other observations

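The 2 most abundant carriers can be compared within a liver. The ratio of Slc38a3 to Slc38a4 TPM averaged 1.26 ± 0.141 in re-expression livers, 1.33 ± 0.156 in livers labelled DKO and 0.941 ± 0.143 in control livers (SD, n = 4). Livers labelled DKO ran from 1.23 to 1.56 and control livers from 0.794 to 1.12, so these did not overlap, while re-expression livers ran from 1.07 to 1.40. The ratio was chosen after the values were seen and was not tested. The 9 genes together summed to 2270.1 ± 95.1 TPM in re-expression livers, 2564 ± 129 TPM in livers labelled DKO and 2641 ± 111 TPM in control livers. Slc38a3 made up 47.6% of that sum in livers labelled DKO and 36.2% in control livers, and Slc7a2 made up 8.74% and 14.6% in the same order.

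Over the 12 livers, the genes whose log2(TPM + 1) followed each called member most closely were Npc1 and Pde3b for Slc7a2 (Pearson r of 0.961 and 0.947), Stat6 and an unnamed gene model for Slc38a2 (0.943 and 0.947), Mal2 and Nek4 for Slc1a4 (0.956 and 0.94) and Upp2 and the gene model 4930545L23Rik for Slc38a4 (0.942 and 0.934). These are the highest among all tested genes and include the differences between groups. Among the members, Slc7a2 and Slc38a2 had r = 0.888 over the same livers, with the group difference in both.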
